A study of Homo sapiens with 12 samples.

Results

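The 48 human genes that encode proteasome subunits, their dedicated assembly chaperones, and the activators and inhibitor that dock on the particle were followed in 12 poly(A) RNA libraries. They were taken as every protein-coding gene whose symbol is PSMA, PSMB, PSMC, PSMD, PSME, PSMF or PSMG followed by a number and nothing else, out of 64252 gene IDs counted. The cells were MDA-MB-231, an established line from human breast cancer of the triple-negative kind, so all groups share 1 cell line. They were transfected by lipofection with a plasmid for Dicer, the ribonuclease that cuts microRNA precursors. The plasmid carried wild-type Dicer or Dicer with mutation 1, mutation 2 or mutation 3, which the labels number without saying what they are, and each of the 4 groups held 3 libraries. Untransfected or empty-plasmid cells were not analysed here, and the labels name no change to the cells' own DICER1 gene. Whether the 3 libraries of a group are separate cultures is not given in the labels, and p-values here describe the scatter among these libraries alone, which could be technical.

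The proteasome is the large protease that degrades proteins tagged with ubiquitin. A barrel-shaped core particle of stacked alpha and beta rings holds the proteolytic sites, and a regulatory cap, built from an ATPase base and a lid, recognises, unfolds and deubiquitinates the substrates. In tumour cells the genes of the core and the cap are known to be transcribed coordinately, among others through the factor NFE2L1, and interferon exchanges the catalytic subunits for induced ones that favour antigen processing.

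Library totals ran from 13507341 to 17078273 counts. Genes that mark this line (VIM, CD44, AXL, CAV1 and EGFR) were abundant, at 157 CPM or more in every library, where CPM is the count scaled to library size with the trimmed mean of M-values. SPARC, on the same marker list, reached only 4.0 CPM. The receptor genes ESR1 and PGR reached at most 0.653 and 0.0741 CPM. The rest of the list of luminal and receptor genes was higher. KRT18 was at 225.93 to 361.54 CPM over the libraries and ERBB2, also a receptor gene, at 68.39 to 111.5. EPCAM ran from 4.5936 to 33.281 CPM and GATA3 from 7.709 to 29.971. Of 9 markers of blood, vessel and stromal cells, CD3E and DCN were among those at 0 in all libraries. The summed level of the 9 was 41.0 to 61.0 CPM in wild type, 134 to 147 with mutation 1, 27.1 to 32.6 with mutation 2 and 47.3 to 53.5 with mutation 3, and its part in the results below was not tested.

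Wild-type replicate 1 stood apart from wild-type replicates 2 and 3, and the counts and summed level of the whole gene set are therefore also given without it and with it alone, as are the values of some single genes. Across all genes, a chi-square per degree of freedom between its counts and those of replicates 2 and 3 was 133.5 and 127.5, against 1.25 between replicates 2 and 3 and 1.29 to 3.28 within the mutant groups. Its rank correlation over the 15094 genes tested was 0.945 with wild-type replicates 2 and 3 and 0.973 to 0.974 with the mutation 2 libraries. Its DICER1 level was 27.4 CPM, against 45.2 and 47.4 in replicates 2 and 3 and 38.8 to 45.7 in the mutant libraries, a count that does not separate plasmid from cellular transcript. The mitochondrial chromosome supplied 2.08% of its counts, where replicates 2 and 3 had 7.83% and 7.92%, mutation 1 libraries 3.34 to 3.46%, mutation 2 libraries 6.39 to 7.67% and mutation 3 libraries 8.77 to 9.02%. Of the 44 proteasome genes tested, 30 were higher in replicate 1 than in both other wild-type libraries and 12 were lower than in both. The log2 difference from their mean ran from -0.59 for PSMB10 to 1.00 for PSMB1, while wild-type replicates 2 and 3 differed by at most 0.18.

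All 44 genes with any count passed the filter on low counts, and the 4 others were at 0 in all 12 libraries. PSMA8 and PSMB11, the testis and thymus variants of core subunits, were among them, and 0 counts allow a level of up to 0.168 to 0.239 CPM depending on the library (3 counts, counting error only). The zeros of PSMB8 and PSMB9, the induced catalytic subunits, cannot be read as levels. Of 74 protein-coding genes that start within 1 Mb of PSMB8 on chromosome 6, 49 (66.2%) were at 0 in all libraries, against 14.7% of 19657 protein-coding genes in all. RPS18, a ribosomal protein gene in that stretch that every cell uses, had 1 count over all libraries. PSMB3, a core subunit that every proteasome needs, was also counted at only 0.201 to 0.919 CPM.

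In the 3 wild-type libraries the levels per kilobase of annotated exon covered a wide range. The length joins all annotated exons of a gene, from 1448 bases for PSMB6 and 1750 for PSMA7 to 6506 for PSMA6. It can exceed the transcript present in the cells, so the order of genes by this measure is uncertain. PSMA7, an alpha ring subunit, was highest at 213 ± 42.7 CPM per kilobase (SD, n = 3), followed by the ATPase PSMC3 at 126 ± 9.11 and the base scaffold PSMD2 at 123 ± 6.20, which did not differ from each other beyond their spread. PSMA6, PSMA2 and PSMB3 stood lowest among the genes with counts, at 1.41 ± 0.0476, 0.937 ± 0.191 and 0.685 ± 0.0847 CPM per kilobase. Of the 44 genes tested, 11 share over 10% of their annotated exonic bases with another gene. The share was 75.8% for PSMC1, 34.8% for PSMB10, 34.6% for PSMA2, 30.7% for PSMD7, 24.7% for PSMA1, 22.6% for PSMD9, 19.5% for PSMC5, 16.7% for PSMG2, 15% for PSMG4, 14.1% for PSMA6 and 10.8% for PSMD1. Counting took no account of strand, so reads there cannot be told apart and these 11 levels are uncertain.

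The whole set was lower with mutations 1 and 3 than with wild type, and about level with mutation 2. The 48 genes summed to 6655, 5609 and 5580 CPM in the wild-type libraries, to 3734, 3733 and 3768 with mutation 1, to 5968, 5839 and 5833 with mutation 2 and to 4223, 4192 and 4191 with mutation 3. Mutation 1 and mutation 3 libraries all lay below every wild-type library, and the mutation 2 sums fell between that of wild-type replicate 1 and those of the other wild-type pair. The means were 0.63 of wild type for mutation 1, 0.706 for mutation 3 and 0.989 for mutation 2. Set against wild-type replicate 1 alone the ratios were 0.563, 0.631 and 0.884, and against wild-type replicates 2 and 3 they were 0.669, 0.751 and 1.05. These are shares of poly(A) RNA in bulk samples, in which fewer cells of a kind and less RNA per cell cannot be told apart.

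**Figure D1:**
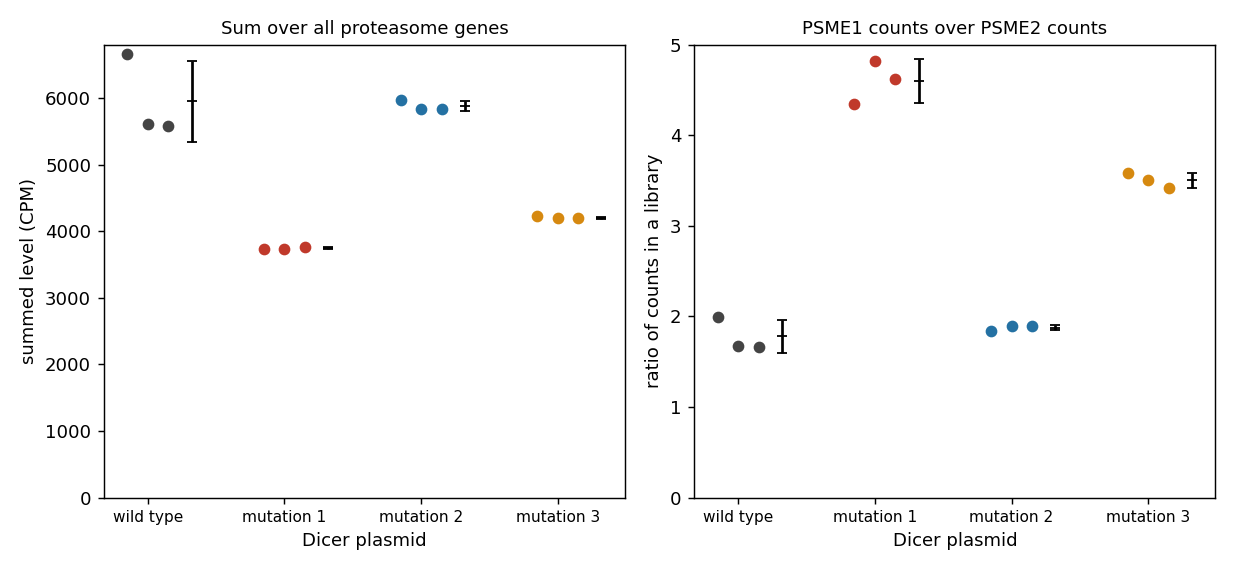
Left, the summed level of the 48 proteasome genes in each library in CPM by Dicer plasmid. Right, PSME1 counts divided by PSME2 counts in the same libraries. Dots are libraries, bars the mean and SD of 3. Sums with mutation 1 (3733 to 3768 CPM) and mutation 3 (4191 to 4223) lie below all wild-type sums, and the ratio is 4.35 to 4.83 with mutation 1 against 1.67 to 1.995 in wild type.

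With mutation 1 against wild type, 34 of the 44 genes tested fell (77.3%), where 36.5% of all 15094 genes did, and 1 rose, where 32.5% of all did (edgeR quasi-likelihood test, adjusted p under 0.05). The median log2 fold change of the 44 was -0.71, against -0.037 over all genes, and 15 genes fell by over 2-fold (19.2% of all genes did). Without wild-type replicate 1 the counts were 34 lower and 4 higher, where 42.5% and 40.2% of all genes were called. With that replicate as the only wild-type library they were 39 lower and 0 higher, where 35% and 35.9% of all were. All 34 genes called lower without it also had a negative log2 fold change against it alone, which was not counted over all genes. Genes that changed side included PSMB1 (log2 fold change 0.65 without replicate 1 and -0.37 against it alone), PSMB2 (0.29 and -0.67) and PSMG2 (0.23 and -0.16).

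With mutation 3, 29 of 44 fell (65.9%; all genes 31.2%) and 0 rose (all genes 28.1%). At an unadjusted p under 0.05 in the same edgeR test the count of higher genes was 0, and DESeq2 also called 0 higher. The median log2 fold change was -0.46, against -0.014 over all genes, and 7 genes fell by over 2-fold (12.6% of all did). Without wild-type replicate 1 the counts were 32 lower and 6 higher (38.8% and 38.2% of all genes), and against it alone 38 lower and 0 higher (33.2% and 33.3%). PSMB1, PSMB2, PSMD14 and PSMG2 were among the genes that changed side between these choices, which was not counted over all genes.

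Mutation 2 gave the smallest differences from wild type and the ones that hung most on the choice of wild-type libraries. There 17 of 44 fell (38.6%; all genes 20.1%) and 3 rose (6.82%; all genes 16.9%), with a median of -0.16 against -0.010 over all genes, and 0 genes fell by over 2-fold (5.56% of all did). Without wild-type replicate 1, 19 were lower and 17 higher, shares close to the 34.9% and 33% of all genes. Against that replicate alone, 28 were lower and 2 higher (25.1% and 25.8% of all genes). The 19 genes called lower without it also had negative log2 fold changes against it alone. PSMD2 (log2 fold change 0.29 without it and 0.15 against it alone) and PSME4 (0.93 and 0.42) stayed above 0. PSMA4, PSMA7, PSMB1, PSMB2, PSMB7, PSMC2, PSMD8, PSMD14 and PSMG4 were among those that changed side. How many of all genes did so was not counted.

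**Figure D2:**
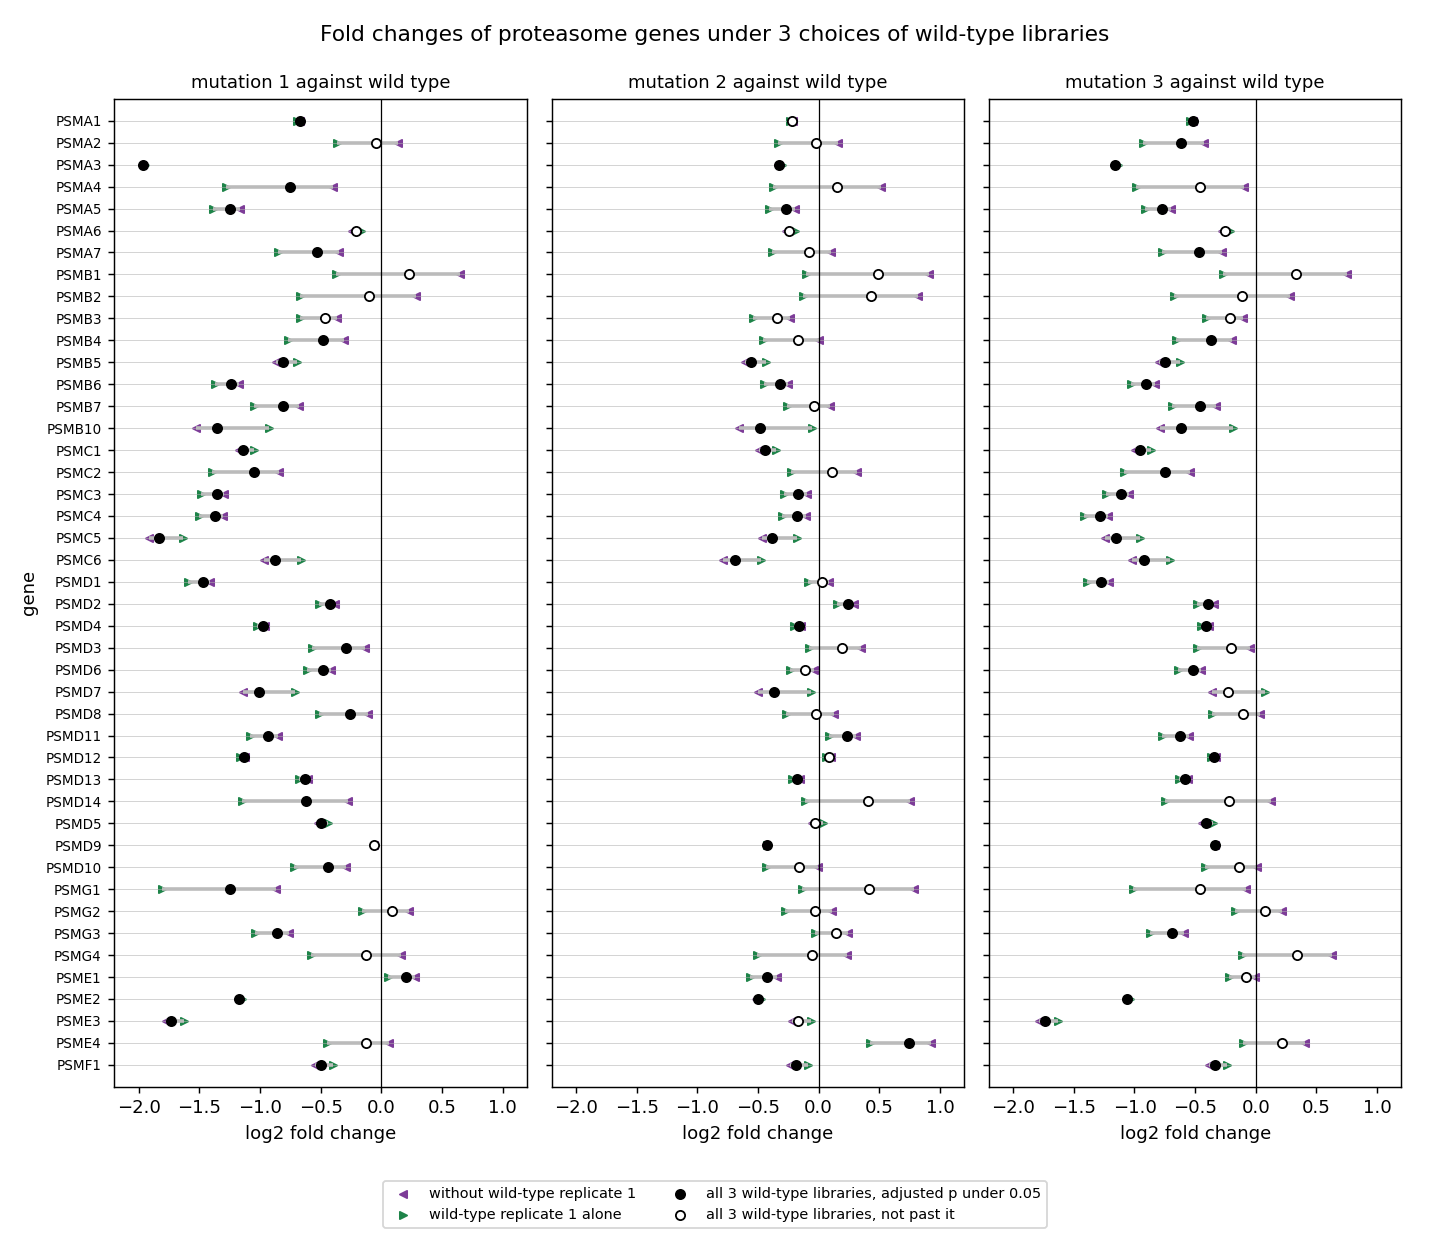
Log2 fold change of the 44 proteasome genes tested (rows) for each mutation against wild type. Circles use all 3 wild-type libraries and are filled where the adjusted p is under 0.05, and triangles show the fit without wild-type replicate 1 and the fit with it alone, joined by a grey line. With mutations 1 and 3 most lines lie wholly below 0, and with mutation 2 many cross it, PSMB1 from -0.11 to 0.91.

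The alpha ring forms the gate of the core particle. Of its 7 subunits with counts, 5 fell with mutation 1 (71.4%; all genes 36.5%) and 5 with mutation 3 (71.4%; all genes 31.2%). With mutation 2, 2 fell (28.6%), near the 20.1% of all genes. The median log2 fold changes were -0.67 with mutation 1, -0.22 with mutation 2 and -0.52 with mutation 3. PSMA3 had the largest decrease of all 44 genes with mutation 1. Its levels were 121, 128 and 121 CPM in wild type, 30.9, 32.8 and 30.9 with mutation 1, 101, 94.6 and 100 with mutation 2 and 57.0, 53.5 and 54.9 with mutation 3. The 4 groups did not overlap, with wild type highest and mutation 1 lowest, and the 3 wild-type libraries were close to each other. The log2 fold change was -1.97 ± 0.056 (SE; edgeR adjusted p = 1.33e-09), a 3.9-fold decrease, with mutation 1, -0.32 ± 0.053 (adjusted p = 0.000976) with mutation 2 and -1.16 ± 0.054 (adjusted p = 5.53e-08) with mutation 3.

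PSMA5 was at 187, 159 and 167 CPM in wild type, 71.5, 72.7 and 72.1 with mutation 1, 150, 135 and 140 with mutation 2 and 98.6, 97.5 and 103 with mutation 3, in the same order of groups and with no overlap. It fell in all 3 comparisons, by 1.24, 0.27 and 0.78 on the log2 scale. PSMA7 also fell with mutations 1 and 3 (log2 fold change -0.53 and -0.46), by less without wild-type replicate 1 (-0.35 and -0.28) and by more against it alone (-0.85 and -0.77). PSMA4 had 218 CPM in wild-type replicate 1 but 119 and 120 in the other wild-type pair, so its decrease with mutation 1 (log2 fold change -0.75) was -0.39 without replicate 1 and -1.28 against it alone. PSMA6 did not pass the test in any comparison.

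**Figure D3:**
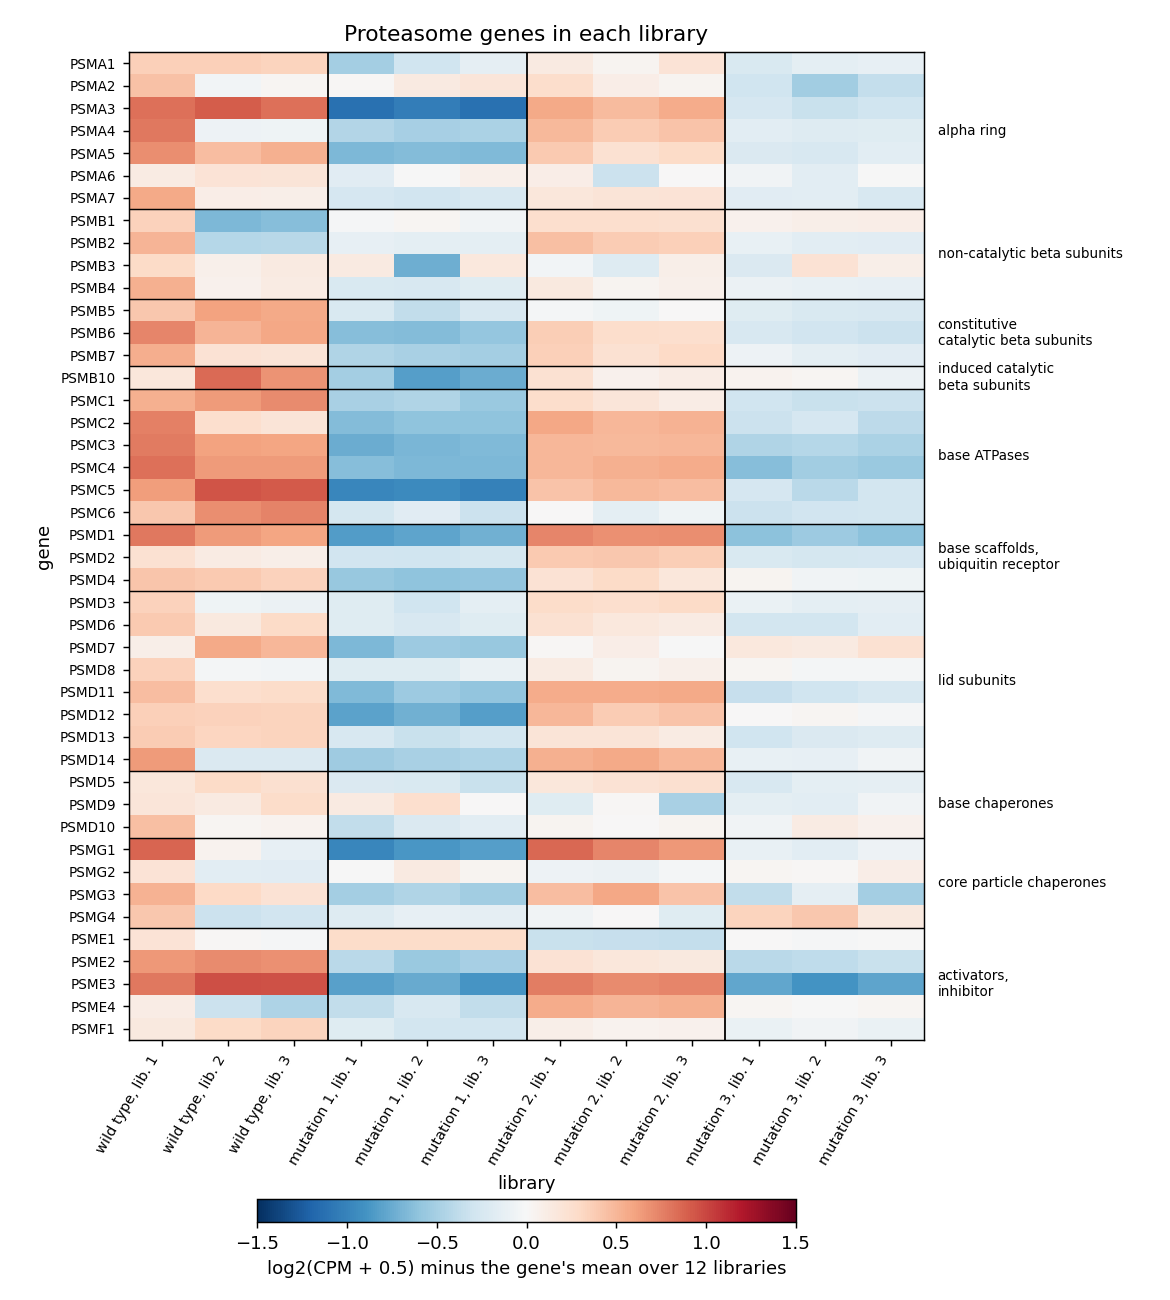
The 44 proteasome genes with counts (rows, grouped by role) in the 12 libraries (columns), as log2(CPM + 0.5) minus the gene's mean over the libraries. Red is above that mean and blue below, and mutation 1 is mostly blue, PSMA3 and PSMC5 deepest, while PSMB1 and PSMB2 are blue in wild-type replicates 2 and 3.

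The non-catalytic beta subunits PSMB1 to PSMB4 complete the inner rings. Only PSMB4 fell, with mutations 1 and 3 (log2 fold change -0.48 and -0.37), and none of the 4 passed the test with mutation 2. Without wild-type replicate 1 the PSMB4 values were -0.31 and -0.20, against it alone -0.77 and -0.66, and the call with mutation 3 was lost in a fit of only the 2 groups. PSMB1 was at 253, 125 and 128 CPM in wild type, 196, 203 and 192 with mutation 1, 236, 236 and 235 with mutation 2 and 209, 212 and 213 with mutation 3. The mutant libraries all fell short of wild-type replicate 1 and exceeded the other wild-type pair, so its direction was set by which wild-type library it was compared with. The summed level of these 4 genes with mutation 1 was 0.906 of the wild-type mean, and it was 1.16 with mutation 2 and 0.954 with mutation 3. Against wild-type replicates 2 and 3 these ratios were 1.11, 1.42 and 1.17, and against replicate 1 alone 0.664, 0.850 and 0.699, so the direction of the sum also turned on that library.

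PSMB5, PSMB6 and PSMB7 are the constitutive catalytic subunits, with chymotrypsin-like, caspase-like and trypsin-like activity respectively. All 3 fell with mutations 1 and 3 (all genes 36.5% and 31.2%), and PSMB5 and PSMB6 with mutation 2 (all genes 20.1%). PSMB6 was at 142, 122 and 128 CPM in wild type, 54.7, 54.4 and 57.1 with mutation 1, 110, 103 and 102 with mutation 2 and 72.0, 69.9 and 68.0 with mutation 3. No mutant library reached the wild-type range, and the log2 fold changes were -1.24 ± 0.066 (SE; edgeR adjusted p = 5.83e-08), -0.32 ± 0.065 (adjusted p = 0.00328) and -0.90 ± 0.066 (adjusted p = 1.08e-06). PSMB5, the main target of bortezomib, was at 102, 118 and 115 CPM in wild type, 65.9, 60.02 and 65.5 with mutation 1, 76.2, 74.2 and 78.0 with mutation 2 and 68.4, 66.3 and 65.6 with mutation 3. All 9 mutant libraries lay below wild type, and it fell by 0.81, 0.55 and 0.74 on the log2 scale. PSMB7 was at 230, 182 and 179 CPM in wild type, 115, 111 and 110 with mutation 1, 201, 183 and 192 with mutation 2 and 149, 142 and 139 with mutation 3. Its mutation 2 libraries lay within the wild-type range. PSMB7 fell by 0.81 and 0.46 with mutations 1 and 3, and its log2 fold change with mutation 2 was -0.034. The mutation 2 value was called higher without wild-type replicate 1 (0.10) and lower against it alone (-0.26).

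PSMB1 and PSMB6 sit in the same ring at the same number of copies, yet their transcripts moved apart. The ratio of PSMB1 to PSMB6 counts, which no scaling between libraries affects, was 1.78, 1.02 and 0.997 in wild type, 3.58, 3.74 and 3.37 with mutation 1, 2.15, 2.31 and 2.30 with mutation 2 and 2.90, 3.04 and 3.13 with mutation 3. Every mutant library lay above every wild-type library. This pair was chosen after its values were seen, and the ratio was not tested.

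Of the induced catalytic subunits only PSMB10 was measurable. It was at 10.7, 17.4 and 15.3 CPM in wild type, 6.47, 5.10 and 5.43 with mutation 1, 11.1, 9.86 and 10.2 with mutation 2 and 9.83, 9.67 and 8.82 with mutation 3. Mutation 1 lay below all wild-type libraries, whereas mutation 2 overlapped wild-type replicate 1. PSMB10 fell with mutation 1 (log2 fold change -1.35 ± 0.17 SE; edgeR adjusted p = 4.11e-05). Its values with mutations 2 and 3 were -0.48 (adjusted p = 0.0415) and -0.62 (adjusted p = 0.00803), and against wild-type replicate 1 alone they were -0.051 and -0.19 and did not pass (adjusted p = 0.798 and 0.280).

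As a share of the counts of PSMB5, PSMB6, PSMB7 and PSMB10 together, PSMB10 held 2.21% in wild-type replicate 1 (exact 95% interval 1.88 to 2.57%) and 3.96% and 3.51% in replicates 2 and 3. The share was 2.21 to 2.67% with mutation 1, 2.66 to 2.79% with mutation 2 and 3.13 to 3.36% with mutation 3. All mutant shares thus lay between the wild-type extremes.

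The base ATPases PSMC1 to PSMC6 form the ring that unfolds substrates and threads them into the core. All 6 fell with mutations 1 and 3 (all genes 36.5% and 31.2%), and all but PSMC2 with mutation 2 (all genes 20.1%). The median log2 fold changes were -1.25 with mutation 1, -1.03 with mutation 3 and -0.28 with mutation 2. Together they summed to 926, 884 and 884 CPM in wild type, 364 to 376 with mutation 1, 756 to 771 with mutation 2 and 433 to 439 with mutation 3. This was the role group with 3 or more measured genes that stood lowest relative to wild type, at 0.411 of its mean level with mutation 1 and 0.485 with mutation 3, and its wild-type libraries were close together.

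PSMC5, which shares 19.5% of its exonic bases with another gene, had the second largest decrease with mutation 1 among the 44. It was at 128, 159 and 157 CPM in wild type, 41.7, 42.5 and 40.7 with mutation 1, 112, 116 and 114 with mutation 2 and 69.5, 62.3 and 68.2 with mutation 3. Its log2 fold changes were -1.83 ± 0.084 (SE; edgeR adjusted p = 1.9e-08), -0.38 ± 0.080 (adjusted p = 0.00399) and -1.15 ± 0.082 (adjusted p = 9.14e-07). No library of one group reached the range of another. PSMC4 was at 149, 132 and 131 CPM in wild type, 54.0, 52.4 and 52.6 with mutation 1, 119, 122 and 124 with mutation 2 and 53.7, 58.5 and 57.2 with mutation 3. It fell by 1.37 and 1.28 on the log2 scale with mutations 1 and 3, so both mutations left it at a like level.

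PSMC3 was at 311, 276 and 275 CPM in wild type, 108, 113 and 115 with mutation 1, 258, 255 and 256 with mutation 2 and 133, 135 and 131 with mutation 3. Mutations 1 and 3 lay far below the other groups, and PSMC3 fell by 1.36 and 1.11 with them. The decreases of PSMC3 and PSMC4 with mutation 2 were small (log2 fold change -0.17 with an adjusted p of 0.0450, and -0.18 with one of 0.0437) and each missed the threshold in 13 of the alternative analyses. PSMC6 was at 99.9, 123 and 127 CPM in wild type, 63.0, 67.3 and 60.7 with mutation 1, 76.02, 68.3 and 72.4 with mutation 2 and 60.3, 61.7 and 62.5 with mutation 3. All mutant libraries lay below wild type, and its decrease with mutation 2 (0.69) was the largest of the 44 genes in that comparison. PSMC1 was at 72.3, 78.3 and 82.3 CPM in wild type, 35.7, 36.3 and 33.9 with mutation 1, 59.9, 57.0 and 54.3 with mutation 2 and 40.7, 39.5 and 39.9 with mutation 3. Its groups did not overlap, and it fell by 1.14, 0.44 and 0.96 on the log2 scale. As 75.8% of its exonic bases are shared with another gene, these values are uncertain.

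The scaffolds PSMD1 and PSMD2 carry the base, and PSMD4 is an intrinsic ubiquitin receptor. PSMD1 was at 182, 165 and 159 CPM in wild type, 58.5, 60.5 and 63.9 with mutation 1, 176, 169 and 171 with mutation 2 and 68.5, 72.1 and 68.5 with mutation 3. Mutation 2 libraries lay within the wild-type range while the other mutants were far below it. The log2 fold changes were -1.47 ± 0.063 (SE; edgeR adjusted p = 1.33e-08), 0.026 ± 0.062 (95% interval -0.12 to 0.17; adjusted p = 0.770) and -1.28 ± 0.063 (adjusted p = 7.81e-08). PSMD2, the related scaffold, moved less, falling by 0.42 and 0.39 with mutations 1 and 3 and rising by 0.24 with mutation 2. PSMD4 was at 191, 188 and 181 CPM in wild type, 95.6, 94.0 and 94.3 with mutation 1, 165, 175 and 161 with mutation 2 and 147, 138 and 137 with mutation 3. Wild type was above every mutant library, and PSMD4 fell by 0.98, 0.16 and 0.41 with mutations 1, 2 and 3, the mutation 2 call being lost in 11 of the alternative analyses.

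Lid subunits surround the deubiquitinase PSMD14, which removes the ubiquitin chain. All 8 lid genes fell with mutation 1 (all genes 36.5%). With mutation 3, PSMD6, PSMD11, PSMD12 and PSMD13 fell (50%; all genes 31.2%). With mutation 2, PSMD7 and PSMD13 fell (25%), near the 20.1% of all genes, while PSMD11 passed the test upward (12.5%; all genes 16.9%). The medians were -0.62 with mutation 1, -0.28 with mutation 3 and 0.034 with mutation 2. PSMD12 was at 113, 111 and 110 CPM in wild type, 50.2, 52.7 and 49.3 with mutation 1, 124, 114 and 118 with mutation 2 and 87.9, 89.1 and 86.4 with mutation 3. Its log2 fold change was -1.13 ± 0.052 with mutation 1 (SE; edgeR adjusted p = 1.87e-08). PSMD13 was at 192, 185 and 185 CPM in wild type, 125, 117 and 122 with mutation 1, 168, 169 and 160 with mutation 2 and 119, 127 and 128 with mutation 3. It is the lid gene that fell with all 3 mutations (log2 fold change -0.63, -0.18 and -0.58), and every mutant library lay below wild type. Its call with mutation 2 was lost in 8 alternative analyses and that of PSMD7 in 6. PSMD11 fell by 0.93 and 0.63 with mutations 1 and 3, and its increase of 0.23 with mutation 2 missed the threshold in 13 alternative analyses.

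PSMD14 itself had 178 CPM in wild-type replicate 1 but 97.9 and 98.02 in the other wild-type pair, and was at 78.6 to 82.7 with mutation 1, 161 to 169 with mutation 2 and 105 to 110 with mutation 3. With mutation 1 it lay below every wild-type library (log2 fold change -0.62, adjusted p = 0.0124; -0.27 without replicate 1 and -1.15 against it alone), a call that was lost without mutation 1 replicate 1 and in a fit of only the 2 groups. The decreases of PSMD3 and PSMD8 with mutation 1 were under 0.3 on the log2 scale, and each missed the threshold when any 1 of the mutation 1 libraries was left out (adjusted p up to 0.143 and 0.130 over all alternatives).

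Among the chaperones that build the base, PSMD5 fell with mutations 1 and 3 (log2 fold change -0.50 and -0.41), PSMD10 with mutation 1 (-0.44, and -0.29 without wild-type replicate 1) and PSMD9 with mutations 2 and 3 (-0.42 and -0.33). The PSMD9 calls were lost in 5 and 10 of the alternative analyses. PSMD5 was at 62.3, 68.0 and 65.8 CPM in wild type, 47.6, 47.3 and 43.9 with mutation 1, 62.6, 64.4 and 65.5 with mutation 2 and 47.1, 50.1 and 50.5 with mutation 3. Mutations 1 and 3 lay below wild type, and mutation 2 within its range. PSMG1 to PSMG4 pair up to assemble the alpha ring. PSMG1 was at 76.9, 43.1 and 38.2 CPM in wild type, 21.0, 22.6 and 23.2 with mutation 1, 76.02, 69.3 and 65.7 with mutation 2 and 38.4, 37.2 and 39.6 with mutation 3. Mutation 1 was below all wild-type libraries, mutation 2 was near wild-type replicate 1 and mutation 3 near the other wild-type pair. The log2 fold change with mutation 1 was -1.24 ± 0.21 (SE; edgeR adjusted p = 0.000381), and -0.87 without wild-type replicate 1 and -1.80 against it alone.

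PSMG2, the partner of PSMG1 in the first chaperone pair, did not pass the test in any comparison of the main fit. It stayed between 56.4 and 73.6 CPM in all libraries. Its direction turned on the wild-type library, with a log2 fold change with mutation 1 of 0.23 without replicate 1 and -0.16 against it alone. PSMG3 fell with mutations 1 and 3 (log2 fold change -0.86 and -0.69), and its partner PSMG4 did not pass in any comparison of the main fit. PSMG4 too changed sides, at 0.16 without wild-type replicate 1 and -0.58 against it alone with mutation 1, and 0.23 and -0.51 with mutation 2.

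**Figure D4:**
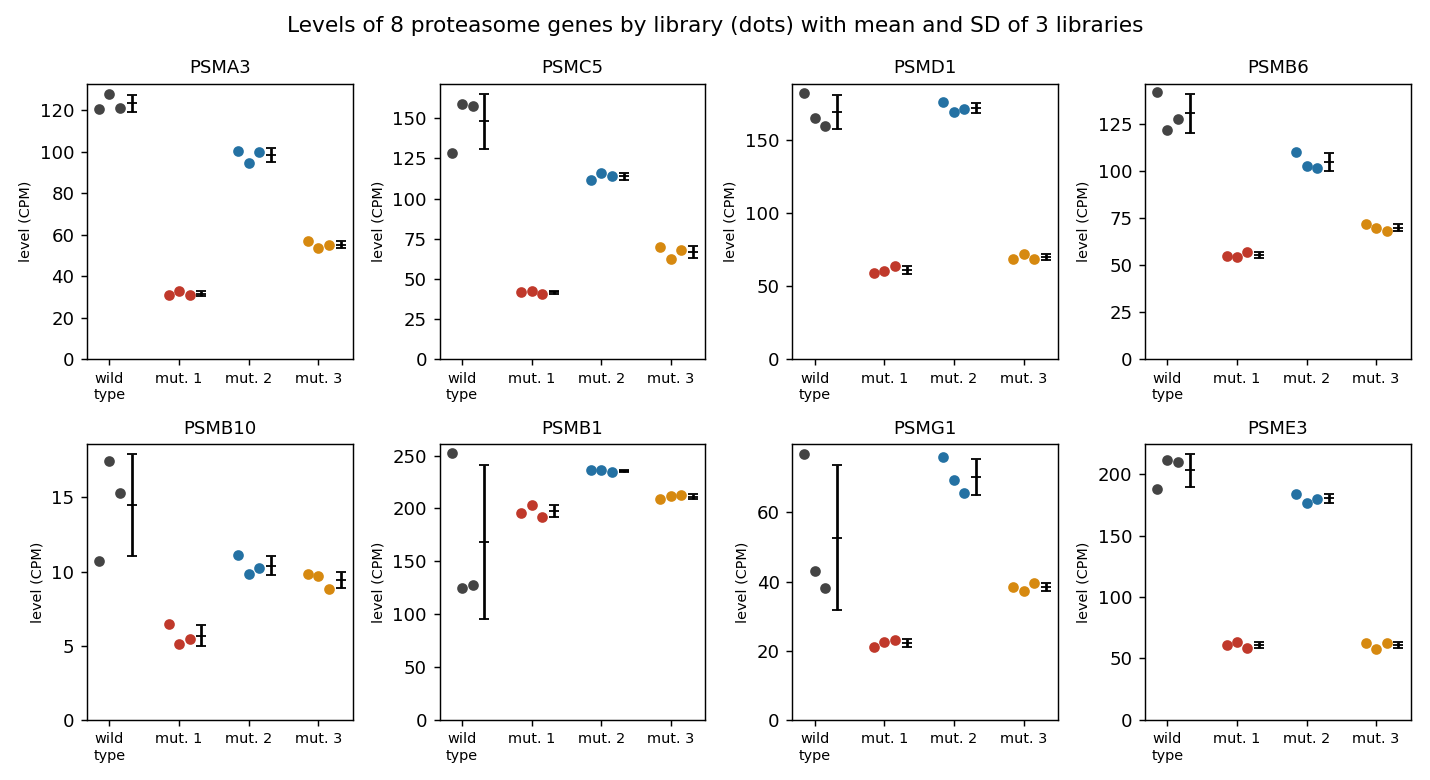
Levels in CPM of 8 proteasome genes by Dicer plasmid (horizontal axis). Dots are libraries and bars the mean and SD of 3 libraries. PSMA3, PSMC5 and PSMB6 stand in the order wild type, mutation 2, mutation 3, mutation 1, whereas PSMB1 and PSMG1 split the wild-type libraries, PSMB1 at 253 against 125 and 128 CPM.

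The activators open the gate of the core in place of the cap or beside it. PSME1 and PSME2 are the 2 subunits of the interferon-induced activator PA28-alpha-beta, PSME3 forms the nuclear PA28-gamma ring, PSME4 is PA200, and PSMF1 (PI31) binds the core and was first described as an inhibitor. These 5 genes diverged. PSME2, PSME3 and PSMF1 fell with mutations 1 and 3, PSME1 and PSME4 were not called lower with either when all 3 wild-type libraries were used, and PSME4 rose with mutation 2. PSMF1 was at 112, 123 and 128 CPM in wild type, 89.4, 83.7 and 83.6 with mutation 1, 107, 105 and 106 with mutation 2 and 94.5, 98.01 and 94.8 with mutation 3. All mutant libraries lay below wild type for PSMF1, which fell by 0.50, 0.19 and 0.34 on the log2 scale, and its mutation 2 call was lost in 8 alternative analyses.

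PSME3 was at 188, 211 and 210 CPM in wild type, 61.3, 63.6 and 58.6 with mutation 1, 184, 177 and 180 with mutation 2 and 62.7, 58.1 and 62.5 with mutation 3. Mutations 1 and 3 shared 1 low range, and mutation 2 lay just under wild type. The log2 fold change was -1.73 with both mutation 1 (± 0.064 SE; edgeR adjusted p = 5.31e-09) and mutation 3 (± 0.064; adjusted p = 1.44e-08), and -0.17 (adjusted p = 0.0512) with mutation 2. Between mutations 3 and 1 the difference was -0.0027 ± 0.063 (SE; 95% interval -0.15 to 0.14; edgeR adjusted p = 0.979).

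PSME1 and PSME2 lie close together on chromosome 14, and their products form 1 ring. PSME1 was at 203, 178 and 174 CPM in wild type, 214, 213 and 212 with mutation 1, 140, 138 and 137 with mutation 2 and 176, 174 and 176 with mutation 3. PSME2 was at 102, 107 and 104 CPM in wild type, 49.1, 44.1 and 45.9 with mutation 1, 75.9, 73.0 and 72.1 with mutation 2 and 49.1, 49.6 and 51.3 with mutation 3. PSME2 thus lay below wild type in every mutant library, while PSME1 did so in full only with mutation 2. PSME2 fell by 1.17 ± 0.056 (SE; edgeR adjusted p = 2.42e-08), 0.50 (adjusted p = 8.57e-05) and 1.06 (adjusted p = 1.14e-07) on the log2 scale.

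PSME1 fell with mutation 2 (log2 fold change -0.42, adjusted p = 0.000402). Its value with mutation 1 was 0.20 (adjusted p = 0.0118), the one upward call in that comparison. That call was lost in 8 alternative analyses and the value was -0.015 when libraries were scaled by their totals. The ratio of PSME1 to PSME2 counts, unaffected by scaling, was 1.995, 1.68 and 1.67 in wild type, 4.35, 4.83 and 4.63 with mutation 1, 1.84, 1.898 and 1.89 with mutation 2 and 3.58, 3.50 and 3.42 with mutation 3. It was higher with mutations 1 and 3 than in any wild-type or mutation 2 library, and it too was chosen after its values were seen and carries no test.

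PSME4 was at 102, 75.5 and 68.6 CPM in wild type, 73.2, 79.7 and 72.7 with mutation 1, 139, 135 and 137 with mutation 2 and 96.1, 93.8 and 96.2 with mutation 3. Mutation 2 lay above all other libraries, and mutation 1 overlapped wild-type replicates 2 and 3. The increase with mutation 2 was 0.74 ± 0.12 on the log2 scale (SE; edgeR adjusted p = 0.000775), the largest upward call among the 44 genes against wild type. It was 0.93 without wild-type replicate 1 and 0.42 against it alone. With mutation 1 its value was -0.12 (adjusted p = 0.368), but it was called lower against wild-type replicate 1 alone (-0.45) and with scaling by library totals, and with mutation 3 (0.22, adjusted p = 0.129) it was called higher without that replicate (0.41). PSME4 counts exceeded PSME3 counts in every mutation 1 and mutation 3 library (ratios 1.19 to 1.25 and 1.53 to 1.62) and in none with wild type (0.326 to 0.541) or mutation 2 (0.756 to 0.762). This ratio carries no test. The annotated exons span 10241 bases for PSME4 and 5152 for PSME3, so a ratio above 1 does not mean more transcripts.

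The promoters of these 4 activator genes are shown because their transcripts moved differently, although PSME1 and PSME2 lie close together and share interferon control. Each runs from 250 bases before to 50 after the RefSeq start on GRCh38.p14, 5′ to 3′ along the gene's strand. Capitals mark matches on either strand to 3 motifs, the antioxidant response element core TGACNNNGC (bound by NFE2L1 and NFE2L2 with small MAF proteins), the CCAAT box CCAAT, and the interferon-stimulated response element core (GAAA, any 2 bases, GAAA). PSME1 is at chr14:24135944-24136243 (+), PSME2 at chr14:24146561-24146860 (-), PSME3 at chr17:42833147-42833446 (+) and PSME4 at chr2:53970944-53971243 (-).
PSME1: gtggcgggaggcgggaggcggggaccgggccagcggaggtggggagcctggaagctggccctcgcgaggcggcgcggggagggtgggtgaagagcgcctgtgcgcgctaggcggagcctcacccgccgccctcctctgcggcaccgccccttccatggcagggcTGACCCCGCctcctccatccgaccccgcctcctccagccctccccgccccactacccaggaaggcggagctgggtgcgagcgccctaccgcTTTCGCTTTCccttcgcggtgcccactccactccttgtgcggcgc
PSME2: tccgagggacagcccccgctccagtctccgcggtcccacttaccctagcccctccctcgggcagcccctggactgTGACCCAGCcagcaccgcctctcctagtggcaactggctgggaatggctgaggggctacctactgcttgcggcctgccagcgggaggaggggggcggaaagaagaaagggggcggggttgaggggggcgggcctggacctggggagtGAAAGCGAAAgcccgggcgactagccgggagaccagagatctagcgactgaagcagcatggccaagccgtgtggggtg
PSME3: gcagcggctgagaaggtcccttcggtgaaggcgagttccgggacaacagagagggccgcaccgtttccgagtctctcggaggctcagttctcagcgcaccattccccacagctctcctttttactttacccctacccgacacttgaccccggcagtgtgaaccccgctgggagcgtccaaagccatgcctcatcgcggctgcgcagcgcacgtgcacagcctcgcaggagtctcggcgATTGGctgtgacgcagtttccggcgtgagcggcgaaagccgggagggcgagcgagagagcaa
PSME4: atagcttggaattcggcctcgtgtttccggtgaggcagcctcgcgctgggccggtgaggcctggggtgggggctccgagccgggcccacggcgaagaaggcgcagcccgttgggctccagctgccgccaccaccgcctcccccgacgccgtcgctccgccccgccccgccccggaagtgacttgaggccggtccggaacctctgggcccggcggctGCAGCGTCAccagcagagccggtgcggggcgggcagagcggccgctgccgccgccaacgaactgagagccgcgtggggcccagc

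PSME1 and PSME2 each held 1 antioxidant response element core and, downstream of it, 1 interferon-stimulated response element core. PSME4 held 1 antioxidant response element core and PSME3 held 1 CCAAT box. Of the 42 members with a promoter in the RefSeq table (PSMA7, PSMB1, PSMB6, PSMB7, PSMD4 and PSMG3 had no entry), 13 (31%) held the antioxidant response element core, against 13.6% of 27305 promoters. The CCAAT box was in 19 (45.2%), against 35.7%, and the interferon-stimulated response element core in 6 (14.3%), against 3.65%. A match of letters is not a bound site, and no comparison was tested on it. The 3 motifs do not overlap in the sequences printed.

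The mutants also differed from each other. Mutation 2 was higher than mutation 1 in 35 of 44 genes (79.5%; 33.6% of all genes) and lower in 2 (4.55%; 31.8% of all), PSMD9 and PSME1, with a median log2 difference of 0.66. The largest differences were PSMG1 (1.66), PSMA3 (1.64), PSME3 (1.56), PSMD1 (1.49) and PSMC5 (1.45). Mutation 3 was lower than mutation 2 in 31 of 44 (all genes 27.2%) and higher in 1, PSME1 (all genes 25.7%), with a median of -0.42. Wild-type libraries enter these comparisons through the filter, the scaling and the shared estimate of spread.

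Mutation 3 was higher than mutation 1 in 17 of 44 genes (38.6%; 22.5% of all) and lower in 2, PSMA2 and PSME1 (20.2% of all), with a median of 0.17. The 17 were 26 without wild-type replicate 1 and 9 to 11 without any 1 of the mutation 1 or mutation 3 libraries. PSMA3 (0.81), PSMD12 (0.79), PSMG1 (0.79), PSMD7 (0.78) and PSMB10 (0.74) differed most. PSMD1, PSMC3, PSMC4 and PSME3 differed by 0.24 or less between these mutants. An F test for any difference among the 4 groups called 37 of 44 genes (84.1%), near the 83% of all genes that it called.

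Among genes that work with the proteasome, POMP, which assembles the core, fell with all 3 mutations (log2 fold change -0.87, -0.34 and -0.75). ADRM1, the removable ubiquitin receptor of the cap, was at 129 to 155 CPM in wild type, 54.1 to 57.3 with mutation 1, 127 to 142 with mutation 2 and 61.8 to 63.9 with mutation 3, and fell by 1.38 and 1.203 with mutations 1 and 3. Of the 12 partner genes 4 fell with mutation 1 (all genes 36.5%), 2 with mutation 2 (20.1%) and 7 with mutation 3 (31.2%), and 2, 3 and 1 rose (all genes 32.5%, 16.9% and 28.1%). The counts with mutation 1 are thus close to or below those shares. Without wild-type replicate 1 the mutation 1 counts were 4 lower and 3 higher, the mutation 2 counts 5 lower and 6 higher, and the mutation 3 counts 8 lower and 4 higher. In that fit 42.5%, 34.9% and 38.8% of all genes were lower with mutations 1, 2 and 3, and 40.2%, 33% and 38.2% were higher. With any other library left out, 1 partner gene was higher with mutation 1, 1 to 3 with mutation 2 and 0 or 1 with mutation 3, and library totals gave 8 lower and 1 higher with mutation 1. Of 10 shuttle factors and VCP cofactors 6 fell with mutation 1 (all genes 36.5%), 0 with mutation 2 (20.1%) and 5 with mutation 3 (31.2%). With the same mutations 3, 2 and 0 rose (all genes 32.5%, 16.9% and 28.1%). The 3 that rose with mutation 1 were 0 with library totals or only the 2 groups. With mutation 2 the 2 higher were 5 without wild-type replicate 1, 0 without mutation 2 replicate 1 or replicate 2 and 1 without any other library, and with mutation 3 the 0 higher were 2 without wild-type replicate 1. VCP, the ATPase that extracts ubiquitinated proteins, fell with mutations 1 and 3 (-0.89 and -0.69), as did its cofactors UFD1 (-0.84 and -0.77) and NPLOC4 (-1.16 and -0.33).

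The 10 genes listed as regulators of proteasome transcription went mostly the other way with mutations 1 and 3. With mutation 1, 9 rose (all genes 32.5%) and NGLY1, the enzyme that activates NFE2L1, fell. With mutation 3, 9 rose (all genes 28.1%). With mutation 2, NFE2L3 and MAFK rose, a share of 20% that is near the 16.9% of all genes. Without wild-type replicate 1 the mutation 2 counts were 5 higher and 3 lower, where 33% and 34.9% of all genes were called. MAFF, a small MAF partner of these factors, was at 86.6, 99.4 and 100 CPM in wild type, 466, 434 and 476 with mutation 1, 89.2, 94.9 and 93.5 with mutation 2 and 239, 226 and 218 with mutation 3. Mutations 1 and 3 lay far above the other groups (log2 fold change 2.27 and 1.25). NFE2L1 itself was 0.32 and 0.31 higher with mutations 1 and 3, and the first of these was not called when libraries were scaled by totals. NFE2L2 rose by 0.74 and 0.57 and FOXO4 by 1.87 and 1.63.

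The list of interferon-linked antigen processing held 12 genes, of which 8 passed the filter on low counts. Of these 8, 7 were called higher with mutation 1 (all genes 32.5%), 6 with mutation 2 (16.9%) and 6 with mutation 3 (28.1%). HLA-B and HLA-C had the largest values with mutation 1 (log2 fold change 2.58 and 2.20), and HLA-B ran from 1.57 to 3.58 over the alternatives. Both lie on the same chromosome as PSMB8, around which many genes had 0 counts. Whether their own counts are affected was not tested. The 7 with mutation 1 were 5 with library totals, 6 with only the 2 groups and 8 without wild-type replicate 1 (all genes 40.2%). The 6 with mutation 3 were 7 without wild-type replicate 1 (all genes 38.2%). They were 5 with library totals, no filter or only the 2 groups, and without any 1 of the mutation 1, mutation 3 or other wild-type libraries. The 6 with mutation 2 were 3 without wild-type replicate 2, wild-type replicate 3 or mutation 2 replicate 2, 4 without mutation 2 replicate 3, and 2 with only the 2 groups. IRF1 was called lower with mutation 3 (log2 fold change -0.35, adjusted p = 0.0224), a call lost without any 1 of the mutation 3 libraries and with only the 2 groups. B2M, the light chain of class I molecules, rose with mutations 1 and 3 (0.98 and 0.40). The counts of these lists are descriptions and carry no test.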

How the data were processed

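For each of the 12 libraries the authors deposited unnormalized counts, in read pairs per gene. Per the file headers, featureCounts 2.0.6 counted pairs over exons by gene ID, without strand, at a mapping quality of at least 10, on hg38 Ensembl genes. DESeq2, SAMtools, STAR, cutadapt 1.9.1 and FastQC 0.11.8 are listed in the submitters' processing notes. Symbols came from GENCODE v29 for 56591 of 64252 IDs, and IDs without a symbol held 0.319% of counts. Library totals were 13507341 to 17078273 counts.

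The counts were tested with edgeR 4.0.16 (R 4.3.3): TMM scaling, filterByExpr (minimum count 10, total 15), robust quasi-likelihood fits of all 12 libraries with 8 residual degrees of freedom, and Benjamini-Hochberg adjustment over 15094 genes at 0.05. The SE is the log2 fold change over the root of its F value. Alternatives were DESeq2 1.42.0, DESeq2-type (RLE) size factors, library totals, no filter, mitochondrial genes left out, fits of 2 groups only, and each library left out. The comparison with wild-type replicate 1 alone was added after seeing the data, and it assumes that a lone library varies like the other groups. The procedure was checked on simulated counts. The members and gene lists were chosen with earlier results of these data known. All 48 members could be named. Values in each library were given for the catalytic subunits, for the member of each role group with the largest change from wild type, for members called alike with all 3 mutations and for members called against most of their group. Of related lists, up to 4 called genes with the lowest adjusted p could be named. NFE2L1, NGLY1, IRF1 and HLA-B were named outside this rule, after their values were seen. Numbers of mutant libraries are only names. Promoters were read from a RefSeq table (GRCh38.p14), and protein sequences were not used here. Some items are not reported here.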

Additional observations from a re-analysis of the deposited data

How the results depend on the processing

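Each of the 44 genes was recomputed in 6 comparisons under 18 other analyses (scaling, filter, tool, groups fitted, libraries left out). Scaling by library totals turned 1 called value, that of PSME1 with mutation 1 against wild type (log2 fold change -0.015), and moved the median of all genes to -0.25 for mutation 1 and -0.14 for mutation 3 against wild type, 0.23 for mutation 2 and 0.11 for mutation 3 against mutation 1, and -0.12 for mutation 3 against mutation 2. The members' median less that of all genes stayed at -0.68 for mutation 1 (-0.67 with TMM). Of all genes called with mutation 1, 36.1% were then higher, against 47.1% with TMM.

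The count of 1 member higher with mutation 1 against wild type was 0 with library totals, with no filter, with only the 2 groups and against wild-type replicate 1 alone, and 0 to 4 with 1 library left out. With mutation 2 against wild type the 17 lower were 10 with no filter, 7 with only the 2 groups and 28 against replicate 1 alone, and 9 to 19 with 1 library left out. The 3 higher were 1 with only the 2 groups and 2 to 17 with 1 library left out, where 17 is without wild-type replicate 1. With mutation 3 the 0 higher were 0 to 6, again highest without that replicate. Between mutations 2 and 1 the 2 lower were 1 with library totals or no filter and 1 to 3 with 1 library left out. Between mutations 3 and 1 the 17 higher were 27 with only the 2 groups and 9 to 26 with 1 library left out, and the 2 lower were 1 with no filter and 1 to 3. Between mutations 3 and 2 the 1 higher was 4 with only the 2 groups and 1 to 4. The causes of these changes were not tested, and the fits of only the 2 groups or with a library left out also held fewer samples.

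Of the calls against wild type, 31 of 35 with mutation 1, 8 of 20 with mutation 2 and 24 of 29 with mutation 3 kept their direction and threshold under every alternative run, the comparison with wild-type replicate 1 alone included. How many of the calls over all genes were kept in this way was not counted, so these counts are not particular to the members. Leaving out mitochondrial genes changed no call among the members. No paired analysis was possible because the mutant libraries carry no replicate numbers. PSMB3 had only 3 to 14 counts per library, so its values are imprecise, and the reason for the low count was not tested.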
